A study of Mus musculus with 14 samples.

Results

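Kidneys collected 24 h after Dps was injected into a vein at 18 mg/kg were compared with kidneys of vehicle-treated mice, across all genes of the deposited count table. The comparison takes the 3 libraries labelled Dps_24h and the 3 labelled Control, which are 6 of the 14 libraries of the series. The table lists 24421 genes, and 14854 of them passed the count filter and were tested. All libraries are whole kidney of male C57BL/6J mice, and the other groups received Dps for 4 h (3 libraries), MnDps for 4 h (3) or MnDps for 24 h (2), each at the same dose. By the title of the series, the study concerns nanocages made of protein that cross the glomerular filter and enter the proximal tubule. The labels spell out neither short name. They give no age, no collection time for the vehicle group and no composition of the vehicle, and they do not state whether each library is a different animal, so that a p-value reflects the spread among libraries, which could be technical.

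Dps is a name in use for ferritin-like proteins of microbes that assemble into hollow cages. In the kidney, filtered proteins are taken up by proximal tubule cells through the receptors megalin (Lrp2) and cubilin (Cubn). Foreign protein or nucleic acid can set off interferon signalling, in which receptors on many cell types activate transcription factors such as Stat2 and Irf9, and these switch on genes that block viruses and present antigen. Irf7, itself an interferon target, then amplifies the production of interferon. Whole kidney also carries a strong day and night rhythm, driven by the activators Arntl and Clock and their repressors of the Per and Cry families.

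Levels are given as CPM, counts scaled to a common library size. Fold changes are on the log2 scale with their standard error (SE), and genes with an adjusted p below 0.05 in edgeR's quasi-likelihood test are named called. By this rule 2979 genes were called (20.1% of those tested), 1432 of them higher after Dps (9.64%) and 1547 lower (10.4%). Most changes were small: the median size over the called genes was 0.43 on the log2 scale, and 112 genes were called with a rise and 126 with a fall beyond 2-fold. Library totals ran from 17589774 to 37135858 counts in the vehicle group and from 19172882 to 21010538 in the Dps group. The first principal component of the 6 libraries held 45.3% of their variance and placed the Dps libraries between −25.4 and −19.9 and the vehicle libraries at 32.7, 7.95 and 29.6. The number of calls depended on single libraries, with 843 called without vehicle replicate 3, the deepest of the 6, 1194 without Dps replicate 2 and 1776 without Dps replicate 1.

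The fold change followed transcript length. Over 14760 genes with a known length the rank correlation of the fold change with length was −0.51 and that with GC content 0.28; these points share the same 6 libraries. In 10 equal bins of genes by transcript length, the shortest bin (median 997 nt) had a median log2 fold change of 0.32, and the longest (median 8171 nt) had −0.29. Of the shortest bin 32.3% were called higher and 0.949% lower, and of the longest 0.813% higher and 35.6% lower. Within libraries, levels relative to the mean of the 6 correlated with length at 0.35, 0.15 and 0.54 in the vehicle libraries and at −0.45, −0.45 and −0.27 in the Dps libraries, so this property of the RNA or the library moved with the treatment; its part in the results was not tested beyond the offset that follows. When each library's own trend on length and GC content was entered as an offset, 752 genes were called higher (5.06%) and 705 lower (4.75%), and 1114 of the 2979 genes were called in both fits, 539 higher and 575 lower. A total of 538 genes were called with the offset and also in each of the 6 fits that left out 1 library, 230 of them higher and 308 lower. Unless a lost call is given, every gene below said to have risen or fallen belongs to these 538.

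**Figure D1:**
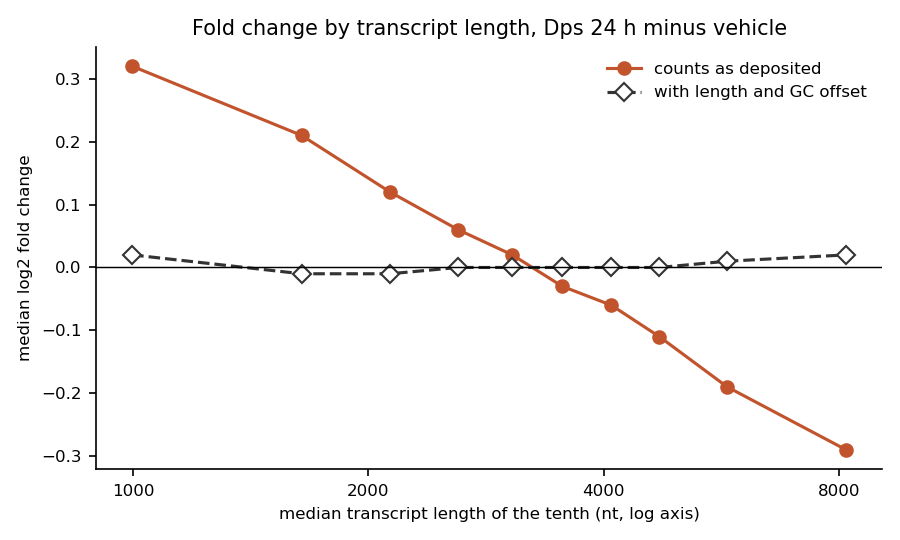
Median log2 fold change of Dps at 24 h minus vehicle (vertical axis) for genes grouped in 10 bins by transcript length (horizontal axis, nt, log scale), from counts as deposited (filled circles) and with the length and GC offset (open diamonds). The medians pass from 0.32 in the shortest bin to −0.29 in the longest, and with the offset they lie between −0.01 and 0.02.

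A set of interferon-stimulated genes was still raised at 24 h. Irf7 had the largest rise among called genes whose Dps libraries averaged 1 CPM or more, with no overlap between the groups, and Bst2, which tethers budding viruses to the cell surface, Ifi27 and Ifi27l2a, small proteins of mitochondrial and other membranes, and Lgals3bp, a secreted glycoprotein, rose with it. Of 43 tested interferon effectors 15 were called higher and 1, Dtx3l, lower, with a median log2 fold change of 0.36 against 0.003 over all tested genes. With the offset 12 were higher and none lower, and without vehicle replicate 3 the numbers were 8 and 0.

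A promoter motif known from interferon-stimulated genes was looked for. The core of the interferon-stimulated response element, GAAANNGAA, was searched on both strands of RefSeq's windows of 300 bases around gene starts (build GRCm38.p6). Of the 44 effectors on the list 33 had a window, and 18 of these (54.5%) held a match, compared with 9.76% of all 27025 genes with a window. Among the effectors called higher, 7 of 11 with a window held one, namely Ifit1, Ifit3, Ifit3b, Isg15, Oas1g, Bst2 and Ifitm3. Over all called genes the shares were 10.1% for higher and 9.77% for lower, with 8.69% for genes not called. The windows of Bst2 (chr8:71537423-71537722, minus strand) and Ifit1 (chr19:34640639-34640938, plus strand) are shown as those of 2 effectors that rose; they hold 2 and 3 matches, some of which overlap, and capitals mark the matches, on either strand.
Bst2: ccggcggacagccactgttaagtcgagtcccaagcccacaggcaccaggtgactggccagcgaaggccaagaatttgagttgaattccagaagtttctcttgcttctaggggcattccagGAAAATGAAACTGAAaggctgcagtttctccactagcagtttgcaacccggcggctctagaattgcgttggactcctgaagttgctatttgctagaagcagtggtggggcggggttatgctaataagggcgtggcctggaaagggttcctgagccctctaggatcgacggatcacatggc
Ifit1: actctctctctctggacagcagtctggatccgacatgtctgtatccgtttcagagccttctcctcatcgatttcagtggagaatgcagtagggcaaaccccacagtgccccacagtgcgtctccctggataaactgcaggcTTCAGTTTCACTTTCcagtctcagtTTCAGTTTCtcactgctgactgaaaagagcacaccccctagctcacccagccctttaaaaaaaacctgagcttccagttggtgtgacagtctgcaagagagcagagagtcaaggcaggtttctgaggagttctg
A match describes these letters only, and the RefSeq window of Irf7 held none.

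Irf7, the master regulator of interferon production, stood at 12.5, 19.8 and 14.2 CPM in the vehicle libraries and at 118, 175 and 104 CPM in the Dps libraries. The lowest Dps library lay far above the highest vehicle library, and the log2 fold change was 3.11 ± 0.24 (8.61-fold, adjusted p = 6.8e-05). At 4 h the Dps libraries had held 361, 482 and 399 CPM, and the 24 h level was lower by test (log2 difference −1.64, adjusted p = 0.000104).

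Bst2 read 15.5, 20.2 and 12.9 CPM in vehicle and 73.5, 103 and 70.7 CPM after Dps, a rise of 2.36 ± 0.23 (adjusted p = 0.000559). Lgals3bp read 67.2, 59.6 and 56.2 CPM in vehicle and 163, 188 and 145 CPM after Dps, a rise of 1.44 ± 0.11 (adjusted p = 4.67e-06). In neither gene did the groups overlap, and both had fallen from their 4 h level, with log2 differences of −1.25 for Bst2 and −0.97 for Lgals3bp.

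Ifi27 followed another course. Its vehicle libraries held 38.7, 38.4 and 31.6 CPM and its Dps libraries 133, 148 and 114 CPM, a rise of 1.86 ± 0.11 (adjusted p = 1.53e-07). At 4 h it had already stood at 127, 122 and 131 CPM, and the difference between 24 h and 4 h was 0.05 (adjusted p = 0.709). Ifi27l2a likewise read 29.9, 37.6 and 30.1 CPM at 24 h and 21.8, 40.4 and 22.4 CPM at 4 h, above vehicle levels of 3.62, 12.3 and 7.54 CPM (log2 fold change 2.07 ± 0.36, adjusted p = 0.00519). The small membrane protein Ifitm1, which blocks virus entry, was 1.22 ± 0.25 above vehicle and did not pass the test against 4 h (−0.52, adjusted p = 0.088).

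Other effectors had come most of the way down. Ifit1, which binds viral RNA, read 4.89, 7.11 and 5.49 CPM in vehicle, 370, 497 and 376 CPM at 4 h and 11.7, 15.9 and 13.3 CPM at 24 h. The 24 h libraries were still above vehicle without overlap (1.24 ± 0.17, adjusted p = 0.00129) and far below 4 h (−4.92, adjusted p = 6.18e-12). Ifit3b (0.83 ± 0.17) and Ifitm3 (1.14 ± 0.21) were also called above vehicle. Isg15, a ubiquitin-like protein attached to other proteins, rose by 1.17 ± 0.26 (adjusted p = 0.0097), a call lost without vehicle replicate 3. Rsad2, which makes an antiviral nucleotide, read 31.9, 32.5 and 30.5 CPM in vehicle and 26.4, 28.8 and 25.9 CPM after Dps (adjusted p = 0.515).

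The sensors and signal carriers of the pathway were near vehicle levels. Of 29 tested members of the sensing and transcription list, Irf7 alone was called higher, and Irf2, Jak1 and Ciita were called lower; the list median was −0.06. The number lower was 1 without Dps replicate 1, Dps replicate 2 or vehicle replicate 1. Irf2, which competes with Irf1 for its target sites, fell by 0.44 ± 0.09, with 24.3, 23.3 and 23.2 CPM in vehicle and 17.2, 17.7 and 17.1 CPM after Dps. The calls of Jak1 (−0.26 ± 0.08) and Ciita (−0.80 ± 0.22) were lost with the offset. Ddx58, a sensor of viral RNA, read 34, 32 and 29.6 CPM in vehicle and 26.8, 33.6 and 31.9 CPM at 24 h (−0.05 ± 0.11, adjusted p = 0.796), after 254, 296 and 268 CPM at 4 h. The RNA sensor Ifih1 (0.00 ± 0.13) and the transcription factors Irf1 (−0.23 ± 0.22) and Irf9 (0.23 ± 0.11) likewise did not pass the test against vehicle. Each of these 4 genes was called lower than at 4 h, and so were 23 of the 29 list members in all.

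Genes that respond mainly to interferon gamma gave no rise. None of 17 guanylate-binding proteins and immunity-related GTPases, which attack intracellular microbes, was called higher, and all 17 were called lower than at 4 h. Gbp7 was called lower than vehicle (−0.60 ± 0.19, adjusted p = 0.0434). This call was lost with the offset and without Dps replicate 1, Dps replicate 2 or vehicle replicate 2. Igtp, for example, stood at 32.6, 41.1 and 20.8 CPM in vehicle, at 729, 791 and 542 CPM at 4 h and at 28.7, 46.4 and 28.6 CPM at 24 h.

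**Figure D2:**
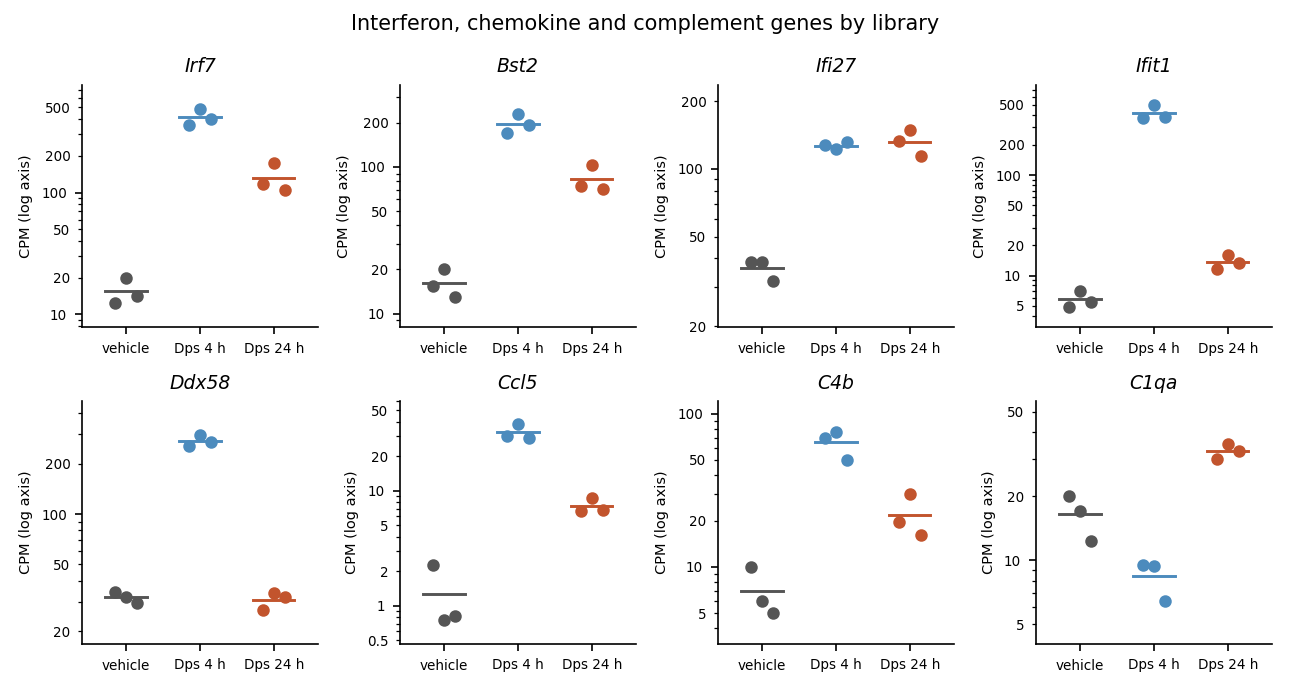
CPM on a log axis in each library (points) with the group mean (line) for 8 genes in vehicle, Dps at 4 h and Dps at 24 h. Irf7, Bst2, Ifit1, Ccl5 and C4b lie between vehicle and the 4 h level, Ifi27 reads alike at 4 h and 24 h within the spread of its libraries, Ddx58 overlaps vehicle, and C1qa is highest at 24 h.

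Antigen presentation by MHC class I was raised in part, and class II was not. Of 18 tested class I genes 9 were called higher and none lower (median 0.59); with the offset 4 were higher, and the number was 4 without Dps replicate 2 and 2 without vehicle replicate 3. H2-T23, a nonclassical class I molecule, read 122, 104 and 109 CPM in vehicle and 181, 223 and 170 CPM after Dps, a rise of 0.78 ± 0.11 (adjusted p = 0.00134). Tapbp, which loads peptides onto class I molecules, rose by 0.63 ± 0.12, from 95.7, 96.7 and 81.8 CPM to 133, 158 and 132 CPM. Psmb8, a subunit of the immunoproteasome, rose by 1.13 ± 0.25 (adjusted p = 0.0111), a call lost without vehicle replicate 3.

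Vehicle replicate 1 stood apart in this group. It held 487 CPM of B2m, the light chain of class I, against 230 and 217 CPM in the other vehicle libraries, and the Dps libraries held 466, 633 and 508 CPM (0.78 ± 0.28, adjusted p = 0.0704). H2-K1 read 436, 223 and 208 CPM in vehicle and 453, 611 and 474 CPM after Dps (adjusted p = 0.0644). Of 12 class II genes none was called in either direction. Cd74, the invariant chain of class II, was again highest in vehicle replicate 1, at 444 CPM, with 201 and 185 CPM in the other vehicle libraries and between 216 and 260 CPM after Dps.

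Chemokine genes had mostly fallen from their 4 h level, and Ccl5 rose most among those called against vehicle. Of 24 tested chemokines 3 were called higher, beside a background of 9.64% of all genes, and none lower. With the offset 3 were higher, and the number was 2 or 3 without 1 library. The list median was 0.38 (0.35 with the offset), and 17 values lay above 0 and 7 below. Their summed level was 332 to 397 CPM in vehicle and 415 to 426 CPM after Dps. Ccl5, which attracts T cells and monocytes, read 2.25, 0.745 and 0.807 CPM in vehicle and 6.72, 8.72 and 6.83 CPM after Dps, a rise of 2.64 ± 0.45 (6.25-fold, adjusted p = 0.00442), without overlap. Cxcl13, which attracts B cells, rose by 1.78 ± 0.38 at low levels, from at most 0.296 CPM to at least 0.735 CPM. Cxcl1, a neutrophil attractant, rose by 0.97 ± 0.33 (adjusted p = 0.0482). Its call was lost with the offset and without any 1 of the Dps libraries or vehicle replicate 3. Ccl2 read 0.494, 0.344 and 0.431 CPM in vehicle and 0.587, 0.245 and 0.478 CPM after Dps, after 8.83, 13.3 and 7.92 CPM at 4 h. Cxcl10 stood at 5.49, 5.56 and 3.2 CPM in vehicle and at 5.66, 6.86 and 5.45 CPM at 24 h (adjusted p = 0.438). In all, 19 of the 24 chemokines were called lower than at 4 h.

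Complement genes were higher after Dps. Of 22 tested genes 10 were called higher and 1, Masp1, lower (median 0.53); with the offset 6 were higher and none lower, and without vehicle replicate 3 or without Dps replicate 2 the number higher was 5. C4b, a component of the classical pathway named here after its values were seen, read 10, 6.02 and 5.03 CPM in vehicle and 19.7, 29.9 and 16.3 CPM after Dps (1.68 ± 0.30, adjusted p = 0.00507). C1qa, a chain of the C1q recognition molecule, read 20, 17 and 12.3 CPM in vehicle and 30.1, 35.1 and 32.6 CPM after Dps, a 2.01-fold rise (adjusted p = 0.00228), and its log2 fold change was 0.63 with the offset. Unlike C4b, which had stood at 69.9, 75.9 and 49.7 CPM at 4 h, C1qa was higher at 24 h than at 4 h (1.93, adjusted p = 3.24e-07). Cfp, which stabilises the alternative pathway convertase, rose by 0.78 ± 0.15 (0.51 with the offset) and was also above its 4 h level (0.59, adjusted p = 0.00353). The other C1q chains were called above vehicle (C1qb 0.92 ± 0.18 and C1qc 0.88 ± 0.16), calls lost with the offset (adjusted p = 0.0713 and 0.062).

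Macrophage genes moved with C1qa, which is itself one of them. Of 20 tested macrophage markers 10 were called higher and none lower (median 0.64), 4 with the offset and 6 without vehicle replicate 3, and their summed level was 219 to 301 CPM in vehicle and 339 to 389 CPM after Dps. Aif1, an actin-binding protein of macrophages, read 2.74, 2.18 and 1.02 CPM in vehicle and 5.12, 6.02 and 5.54 CPM after Dps (1.57 ± 0.27, adjusted p = 0.00283). Fcer1g, the signalling chain of Fc receptors, rose by 1.44 ± 0.20 (adjusted p = 0.00134), from 6.15, 4.47 and 4.36 CPM to 11, 13.9 and 15.2 CPM. Siglece, an inhibitory receptor of myeloid cells, rose late: it read 2.42, 1.49 and 1.21 CPM in vehicle, 1.44, 1.4 and 1.25 CPM at 4 h and 3.47, 4.41 and 4.45 CPM at 24 h (1.31 ± 0.24, adjusted p = 0.00337). Csf1r, the growth factor receptor of macrophages, did not pass the test (0.13 ± 0.11), nor did Mrc1 (−0.20 ± 0.30) or Lyz2 (0.74 ± 0.35). In whole kidney, more cells of a type and more RNA per cell cannot be told apart.

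Markers of other leukocytes were counted in the same way. The monocyte integrin Itgam rose by 0.90 ± 0.20 (adjusted p = 0.00714), and 4 of 10 monocyte markers were called higher, 3 with the offset and 1 without vehicle replicate 3 (median 0.82). Ccr7, the homing receptor of mature dendritic cells and some T cells, read 0.494, 0.229 and 0.242 CPM in vehicle and 1.55, 2.45 and 1.48 CPM after Dps (2.55 ± 0.44, adjusted p = 0.00267). At 4 h it read 1.39, 2.29 and 1.08 CPM, and the difference of 0.16 between the time points did not pass the test (adjusted p = 0.731). None of 10 T cell, 7 NK cell or 5 B and plasma cell markers was called, and their summed levels reached at most 14.2, 5.65 and 5.74 CPM. Neutrophil markers summed to between 0.631 and 1.59 CPM in vehicle and between 1.86 and 2.96 CPM after Dps. S100a9 was the only 1 of 4 tested that was called (2.39 ± 0.78, adjusted p = 0.04), and the list median was 1.59. Its call was lost with the offset, and no neutrophil marker was called in any fit without 1 library other than vehicle replicate 1.

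Acute-phase and secreted defence genes were called higher in 6 of 22 cases and lower in none (median 0.50), 3 with the offset. The number was 3 without Dps replicate 1 or vehicle replicate 1, and 1 without Dps replicate 2 or vehicle replicate 3. Saa3, a serum amyloid, read 0, 0.0573 and 0.0269 CPM in vehicle and 0.374, 0.392 and 0.86 CPM after Dps (adjusted p = 0.00554), and had stood at 4.13, 3.89 and 2.55 CPM at 4 h. Haptoglobin, Hp, which binds free haemoglobin, read 0.384, 3.78 and 0.969 CPM in vehicle and 13.9, 16.1 and 6.93 CPM after Dps (2.97 ± 0.73, adjusted p = 0.0199), a call lost without any of 4 libraries. Apod, an apolipoprotein of the lipocalin family, rose by 2.59 ± 0.43 (adjusted p = 0.00259), from 0.22, 0.917 and 0.296 CPM to 1.87, 3.28 and 2.77 CPM. Apol7c, an apolipoprotein L family member, rose by 2.66 ± 0.40 (adjusted p = 0.00177), from 0.11, 0.172 and 0.296 CPM to 1.39, 1.81 and 0.956 CPM. Serpina3n, a protease inhibitor of the acute phase, was higher by 2.76 ± 0.72 (adjusted p = 0.02), a call lost without Dps replicate 2 or vehicle replicate 3. Genes of fat cells moved along with these: Adipoq, the adipokine adiponectin, read 0.0549, 5.9 and 1.02 CPM in vehicle and 10.7, 7 and 3.78 CPM after Dps, and Lep, Plin1, Ucp1 and Cidea were at 0 in vehicle replicate 1. Of 14 adipocyte markers 1, Fabp4, was called higher (7 without vehicle replicate 2), 12 had a log2 fold change above 0, and the list median was 1.42 (1.33 with the offset). Their summed level was 1659 to 2584 CPM in vehicle and 1306 to 2087 CPM after Dps. Adipoq supplied at most 10.7 CPM of that sum, so the sum does not follow the change of each marker. The part of these markers in the values of Hp, Saa3, Apod and Apol7c was not tested.

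Of 28 tested genes of tubule injury and repair 3 were called higher and 2 lower, counts near the background of 9.64% and 10.4% of all genes; the number higher was 7 without vehicle replicate 2 and 0 without vehicle replicate 3. The list median was 0.34 (0.12 with the offset), and 20 of the 28 values lay above 0. Havcr1, the kidney injury molecule KIM-1, read 1.26, 2.29 and 1.56 CPM in vehicle and 2.46, 2.79 and 2.1 CPM after Dps (0.54 ± 0.38, adjusted p = 0.329). Lcn2, neutrophil gelatinase-associated lipocalin, read 3.84, 4.47 and 2.4 CPM in vehicle and 4.7, 2.99 and 7.65 CPM after Dps (0.59 ± 0.65, adjusted p = 0.557), after 27.9, 52 and 50.2 CPM at 4 h. The groups overlapped for both genes. Vim, an intermediate filament protein of mesenchymal and regenerating cells, rose by 0.55 ± 0.13 (adjusted p = 0.0109) and Krt20, a keratin, by 2.17 ± 0.51 (adjusted p = 0.00972), calls that were both lost without vehicle replicate 3. Of 11 urothelial markers, Krt20 among them, 2 were called higher (8 without vehicle replicate 2, 0 without vehicle replicate 3), all 11 lay above 0 and the median was 0.82 (0.57 with the offset). Their summed level was 131 to 190 CPM in vehicle and 184 to 207 CPM after Dps, and their part in the value of Krt20 was not tested. Sox4, a transcription factor of developing and repairing epithelium, fell by 1.12 ± 0.16 (adjusted p = 0.00155), from 5.38, 6.02 and 6.46 CPM to 3.04, 2.84 and 2.39 CPM.

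**Figure D3:**
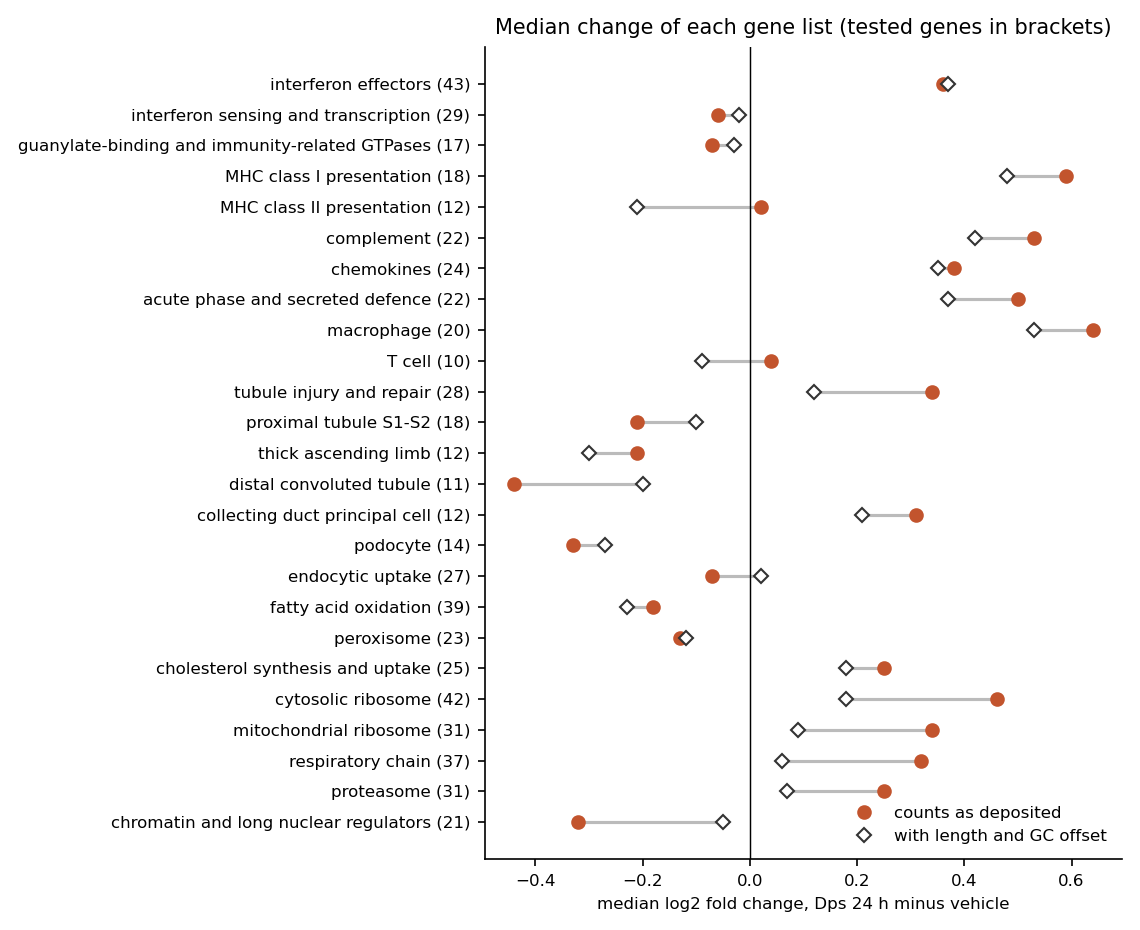
Median log2 fold change of Dps at 24 h minus vehicle (horizontal axis) for 25 gene lists (vertical axis, number of tested genes in brackets), from counts as deposited (filled circles) and with the length and GC offset (open diamonds). Among the lists plotted, the macrophage list had the highest median, 0.64, and the distal convoluted tubule list the lowest, −0.44; the ribosome, respiratory chain and chromatin lists moved towards 0 with the offset.

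In the protein uptake machinery of the proximal tubule, most calls were lost with the length and GC offset. Of 27 tested endocytic genes 9 were called lower and 1 higher (median −0.07), 4 and 1 with the offset. Only 3 genes were called in both fits. The number lower was between 2 and 5 without any 1 of the Dps libraries or vehicle replicate 3. Megalin, Lrp2, read 2439, 2475 and 2739 CPM in vehicle and 1980, 2119 and 2121 CPM after Dps (−0.30 ± 0.08, adjusted p = 0.0164), and with the offset its change was 0.05 (adjusted p = 0.619). Cubilin, Cubn, read 504, 462 and 535 CPM in vehicle and 443, 409 and 414 CPM after Dps (−0.25 ± 0.08, adjusted p = 0.0471), and 0.12 with the offset (adjusted p = 0.275). The falls of Dab2, the adaptor of megalin (−0.38 ± 0.08), and of Clcn5, the endosomal chloride exchanger (−0.80 ± 0.14), kept their call with the offset, at −0.22 and −0.46. Clcn5 read 24.4, 20.6 and 28.3 CPM in vehicle and 13.1, 13.6 and 15.6 CPM after Dps.

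Of 18 markers of the first parts of the proximal tubule 4 were called lower and none higher, 13 lay below 0, and the median was −0.21. With the offset none was called and the median was −0.10, and the number lower was 1 or 2 in each fit without 1 library other than vehicle replicate 2. Slc34a1, the main phosphate carrier, read 6282, 6690 and 6672 CPM in vehicle and 6342, 6920 and 5905 CPM after Dps (adjusted p = 0.809). Slc9a3, the sodium and proton exchanger of the brush border, read 41.8, 41.3 and 63.2 CPM in vehicle and 21.2, 22.7 and 19.5 CPM after Dps (−1.21 ± 0.20, adjusted p = 0.00338). Slc5a8, a carrier of lactate and short fatty acids, fell by 0.57 ± 0.11, and Abcc2, an export pump for conjugated drugs, fell by 0.70 ± 0.10 (adjusted p = 0.00134), with changes of −0.35 and −0.37 by the offset. Slc7a12, a carrier of neutral amino acids, rose by 1.57 ± 0.30 (adjusted p = 0.00454), from 3.73, 3.15 and 3.04 CPM to 7.15, 6.46 and 15.7 CPM, and was at 4.23, 2.32 and 3.58 CPM at 4 h. Without Dps replicate 3 its rise was 1.03. Cyp2a4, a steroid hydroxylase, read 442, 375 and 509 CPM in vehicle and 769, 801 and 728 CPM after Dps, a rise of 0.79 ± 0.12 (adjusted p = 0.00171). Spink1, a trypsin inhibitor, rose by 0.60 ± 0.11, or 0.34 with the offset.

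Along the rest of the nephron, some distal convoluted tubule and podocyte genes fell and some principal cell genes of the collecting duct, such as Aqp2, rose. In the thick ascending limb, Casr, the calcium-sensing receptor, read 24.6, 23.4 and 35.9 CPM in vehicle and 11.2, 12.3 and 10.3 CPM after Dps (−1.32 ± 0.19, adjusted p = 0.00171). Egf, the precursor of epidermal growth factor, read 1537, 1447 and 1780 CPM in vehicle and 935, 809 and 965 CPM after Dps (−0.81 ± 0.17, adjusted p = 0.00671). Both groups were fully apart in these genes, while 9 of the 12 markers of the limb were not called, among them Umod (−0.35 ± 0.12, adjusted p = 0.0525). Without vehicle replicate 1 the number called lower in this segment was 5.

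Of 11 markers of the distal convoluted tubule 7 were called lower and none higher, 4 with the offset and 3 without vehicle replicate 3. The magnesium channel gene Trpm6 read 33, 29.4 and 39.6 CPM in vehicle and 18.5, 18.2 and 20.9 CPM after Dps (−0.83 ± 0.13, adjusted p = 0.00217), and it already stood at 21.9, 17.4 and 21.3 CPM at 4 h. The calcium channel gene Trpv5 fell by 0.75 ± 0.14 and was lower than at 4 h as well (−0.80, adjusted p = 0.000302). Slc12a3, the thiazide-sensitive cotransporter, was called lower by 0.23 ± 0.08 (adjusted p = 0.0398), a call lost with the offset.

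Of 12 principal cell markers 4 were called higher and none lower, 3 with the offset. Aqp2, the vasopressin-regulated water channel, read 141, 232 and 133 CPM in vehicle, 136, 180 and 170 CPM at 4 h and 425, 364 and 438 CPM at 24 h (1.28 ± 0.23 against vehicle, adjusted p = 0.00504). Avpr2, the vasopressin receptor, rose by 0.56 ± 0.11 (adjusted p = 0.00433), and Fxyd4, a regulator of the sodium pump, by 0.83 ± 0.14 (adjusted p = 0.00259). Aqp3, a water channel of the opposite cell face, was called higher (0.37 ± 0.10), a call lost with the offset. All 4 genes were also higher than at 4 h by test.

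Of 14 podocyte markers 6 were called lower and 1, Cdkn1c, higher, with 4 and 0 by the offset and 3 lower without Dps replicate 2. Npnt, a matrix protein of the filter, read 152, 165 and 168 CPM in vehicle and 114, 96.9 and 117 CPM after Dps (−0.56 ± 0.12, adjusted p = 0.00632). Synpo, which organises podocyte actin, read 44.9, 52.3 and 51.1 CPM in vehicle and 32.2, 36.2 and 38.9 CPM after Dps (−0.47 ± 0.11, adjusted p = 0.00795). The groups did not overlap for either gene. Nphs1, nephrin, read 27.7, 32.3 and 30.9 CPM in vehicle and 20.3, 24.3 and 27.6 CPM after Dps and was not called (−0.33 ± 0.13, adjusted p = 0.0749).

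Among transport and hormone genes of the tubule, falls outnumbered rises. Of 29 carriers of sodium, phosphate, glucose and amino acids 6 were called lower and 1 higher. The same numbers were called with the offset, and 6 genes were called in both fits. Slc1a1, the glutamate carrier, fell by 0.35 ± 0.08, from 386, 376 and 401 CPM to 315, 295 and 303 CPM (adjusted p = 0.00784). Of 14 genes of the renin, vitamin D and klotho axis 3 were called lower and none higher. Vdr, the vitamin D receptor, fell by 0.42 ± 0.08, from 396, 372 and 381 CPM to 290, 292 and 279 CPM (adjusted p = 0.0033), and Enpep, which cleaves angiotensin II, fell by 0.33 ± 0.07. Klotho, Kl, was lower by 0.40 ± 0.12 (adjusted p = 0.0238), a call lost with the offset.

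Genes of fatty acid oxidation fell. Of 39 tested genes 11 were called lower and 4 higher (median −0.18), and with the offset 12 and 2. Without vehicle replicate 3 the number lower was 7, and the number higher was 2 without Dps replicate 1 or 2 or vehicle replicate 1 or 3. Cpt1a, which brings fatty acids into mitochondria, read 583, 560 and 636 CPM in vehicle and 406, 405 and 393 CPM after Dps (−0.56 ± 0.09, adjusted p = 0.00239). The omega-hydroxylase genes Cyp4a10 and Cyp4a31 both fell, with log2 fold changes of −0.71 ± 0.17 and −0.70 ± 0.13; they belong to a family of near-identical copies, so reads could be split between them. The peroxisomal enzyme gene Ehhadh (−0.59 ± 0.14), the thioesterase gene Acot12 (−0.62 ± 0.10) and the coactivator gene Ppargc1a (−0.60 ± 0.13, and −0.32 with the offset) fell as well. For Cpt1a, Cyp4a10, Cyp4a31, Ehhadh and Acot12 the 24 h level was also below the 4 h level, with log2 differences between −0.54 and −0.94. Acaa1a, a peroxisomal thiolase, went the other way, from 138, 156 and 137 CPM to 195, 218 and 203 CPM (0.52 ± 0.10, adjusted p = 0.00346). Peroxisomal genes beyond this list also fell, among them Hacl1, which shortens branched and hydroxylated fatty acids (−0.53 ± 0.10, adjusted p = 0.0044), Abcd3, a fatty acid transporter of the peroxisome membrane (−0.37 ± 0.08, adjusted p = 0.00585), and Nudt12, which hydrolyses nucleotide cofactors (−0.82 ± 0.15, adjusted p = 0.00402). Of 23 genes on the peroxisome list 6 were called lower and 2 higher, 5 and 1 with the offset, and 3 lower without vehicle replicate 3. Pdk4, which diverts glucose from oxidation, spread from 29.2 to 111 CPM in vehicle and from 17.2 to 24.3 CPM after Dps and was not called (adjusted p = 0.0666).

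Of 24 tested genes of glycolysis and gluconeogenesis 6 were called higher and 2 lower (median 0.14), and 3 and 2 with the offset (median −0.03). The number higher was 2 without Dps replicate 1, Dps replicate 2 or vehicle replicate 1, and without vehicle replicate 3 none was called. Outside that list, Irs2, an adaptor of the insulin receptor, read 12.1, 19 and 25.4 CPM in vehicle, 11.6, 9.78 and 13.8 CPM at 4 h and 5.23, 2.3 and 4.01 CPM at 24 h (−2.31 ± 0.46, adjusted p = 0.00817). Igfbp1, a secreted binder of insulin-like growth factors, read 26.4, 8.03 and 7.8 CPM in vehicle and 4.96, 1.52 and 2.77 CPM after Dps (−2.18 ± 0.54, adjusted p = 0.0199), a call lost without Dps replicate 2 or 3; without vehicle replicate 1 the change was −1.38. Txnip, which rises with glucose and limits its uptake, fell by 0.97 ± 0.20, from 567, 630 and 791 CPM to 317, 266 and 436 CPM. Klf9, a transcription factor that responds to glucocorticoid and thyroid hormone, fell by 0.95 ± 0.14, from 149, 126 and 170 CPM to 77.7, 72.4 and 80.2 CPM (adjusted p = 0.00202). Hk2, a hexokinase, was higher by 1.73 ± 0.41 (adjusted p = 0.0106), a call lost without Dps replicate 2 or vehicle replicate 3.

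Mmp13, a collagenase, had the largest fall among called genes whose vehicle libraries averaged 1 CPM or more, with no overlap between the groups. It read 2.47, 3.1 and 3.23 CPM in vehicle and 0.32, 0.0979 and 0.287 CPM after Dps (−3.63 ± 0.45, 12.4-fold lower, adjusted p = 0.000704), and it was already low at 4 h, at 0.26, 0.459 and 0.597 CPM (difference −0.81, adjusted p = 0.247). Atp12a, a proton and potassium pump of the collecting duct, fell late, from 1.15, 2.41 and 2.56 CPM in vehicle and 3.73, 1.3 and 2.44 CPM at 4 h to 0.534, 0.245 and 0.43 CPM (−2.36 ± 0.52, adjusted p = 0.00766). Itgb8, an integrin that activates TGF-beta, fell from 24, 20.1 and 28.5 CPM to 6.24, 6.46 and 9.8 CPM (−1.69 ± 0.28, adjusted p = 0.0033). Shroom4 (−1.96 ± 0.36), Ikzf4 (−2.00 ± 0.37), Col6a6 (−1.70 ± 0.26) and Peg3 (−1.65 ± 0.30) were also among the 15 largest falls.

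Cholesterol genes leaned upward. Of 25 tested genes 9 were called higher and 1 lower (median 0.25), and 6 and 0 with the offset. Only 4 genes were called in both fits. The number higher was 3 without Dps replicate 1 and 2 without Dps replicate 2 or vehicle replicate 3. Fdps, an enzyme of the isoprenoid branch, rose by 0.82 ± 0.17 (adjusted p = 0.00676), from 16.5, 21.2 and 15.2 CPM to 32.9, 31.9 and 28.1 CPM.

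The clock differed between the groups in both directions. Of 21 tested clock and output genes 6 were called higher and 5 lower; with the offset 9 were higher and 3 lower, and 9 genes were called in both fits. Without Dps replicate 2 the numbers were 3 higher and 2 lower, and without vehicle replicate 3 the number lower was 3. Arntl, the activator also called Bmal1, read 5.54, 6.71 and 4.14 CPM in vehicle, 4.23, 5.8 and 5.91 CPM at 4 h and 2.08, 1.86 and 1.34 CPM at 24 h (−1.62 ± 0.27, adjusted p = 0.00239). Its relative Npas2 fell by 1.45 ± 0.34, a call lost without Dps replicate 2. Clock itself was called lower (−0.47 ± 0.10), which became −0.10 with the offset (adjusted p = 0.445).

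On the side of the repressors and outputs, Cry1 read 2.42, 3.67 and 2.66 CPM in vehicle and 4.96, 7.88 and 8.84 CPM after Dps (1.33 ± 0.24, adjusted p = 0.0033). Dbp, a transcription factor driven by the clock, read 110, 104 and 137 CPM in vehicle and 192, 188 and 180 CPM after Dps (0.67 ± 0.11, adjusted p = 0.00252, and 0.41 with the offset). Nr1d1, which represses Arntl, was lower by 0.65 ± 0.17 (adjusted p = 0.0161), a call lost without Dps replicate 2 or vehicle replicate 3. The labels do not give the hour at which any kidney was taken, so the treatment and the time of day cannot be told apart for these genes. The same limit holds for every other gene compared here, including the metabolic, transport and hormone-responsive genes.

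The clock activators bind the E-box CACGTG, and it was searched on both strands of the same RefSeq windows. Of 22 clock genes 17 had a window and 5 of these (29.4%) held a match, namely Per1, Cry1, Tef, Bhlhe41 and Ciart, compared with 8.09% of all genes with a window and 11.3% of the tested ones. The shares were 10.7% for all genes called higher, 11% for those called lower and 11.5% for genes not called. The window of Cry1 (chr10:85185005-85185304, minus strand, GRCm38.p6) is shown because Cry1 had the largest rise among the clock genes; capitals mark its single match.
Cry1: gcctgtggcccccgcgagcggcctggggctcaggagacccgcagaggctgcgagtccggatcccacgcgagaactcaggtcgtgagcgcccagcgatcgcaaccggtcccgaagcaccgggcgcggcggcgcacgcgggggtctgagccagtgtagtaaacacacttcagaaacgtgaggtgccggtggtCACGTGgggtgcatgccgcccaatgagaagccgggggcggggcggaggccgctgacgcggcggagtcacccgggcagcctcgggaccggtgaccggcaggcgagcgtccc

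**Figure D4:**
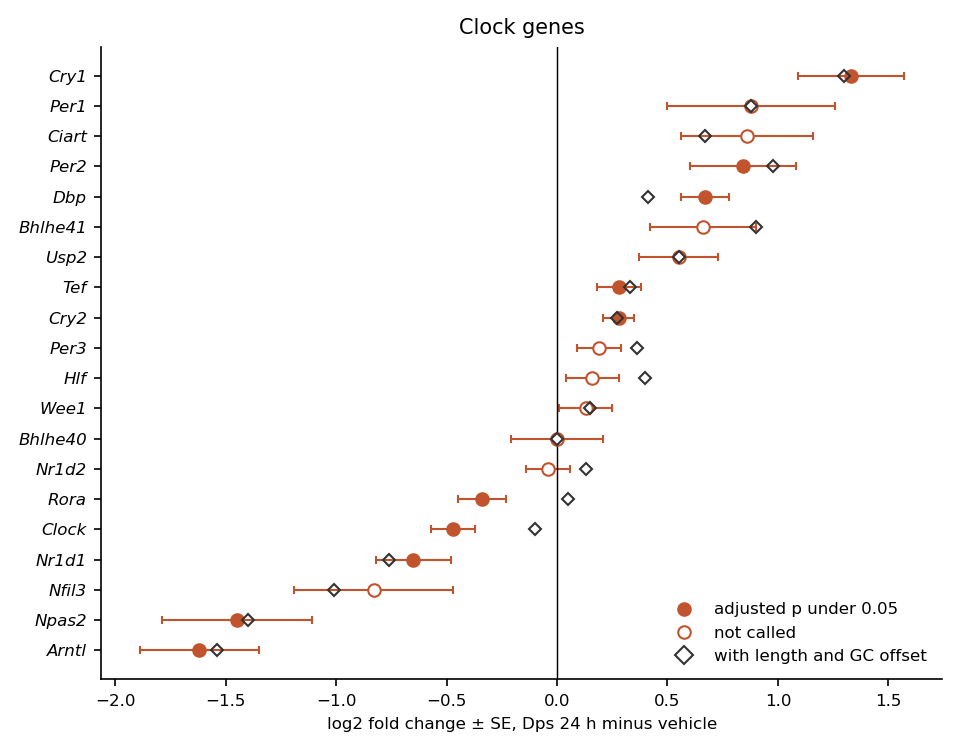
Log2 fold change ± SE of Dps at 24 h minus vehicle (horizontal axis) for 20 of the 21 tested clock genes (vertical axis); filled circles were called, open circles were not, and diamonds give the value with the length and GC offset. Arntl lies lowest at −1.62 and Cry1 highest at 1.33, and the diamond of Clock lies near 0.

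**Figure D5:**
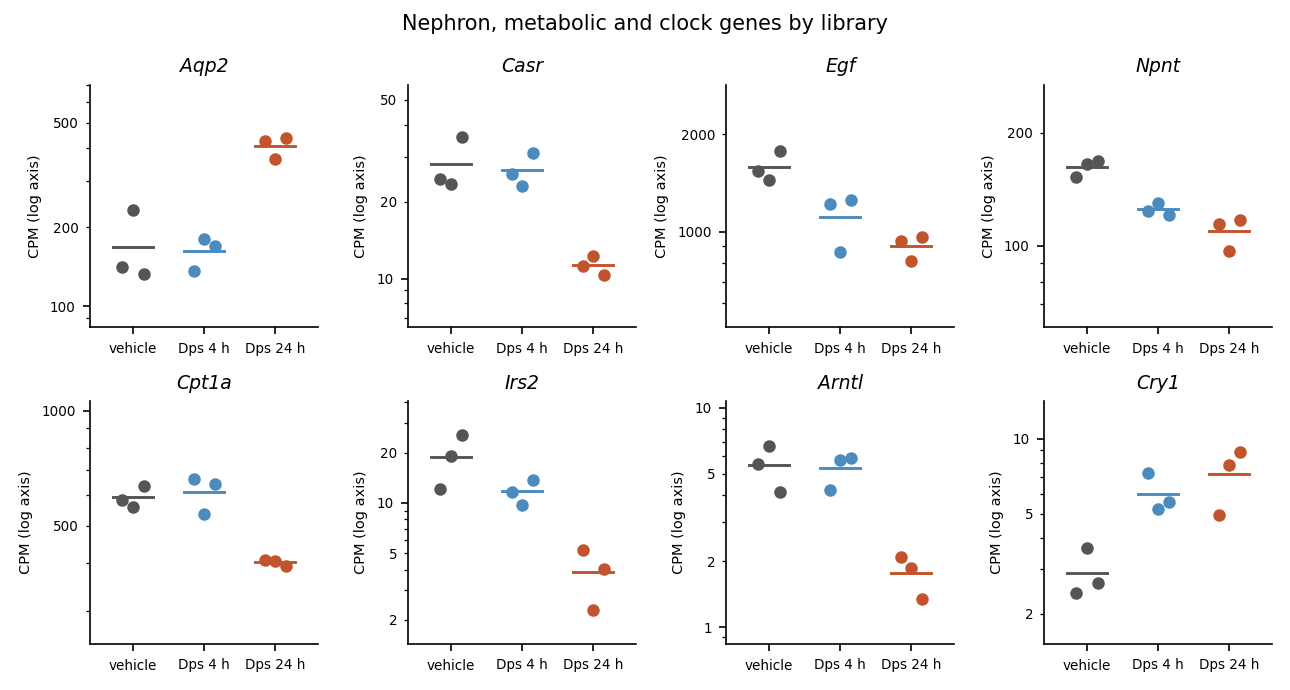
CPM on a log axis in each library (points) with the group mean (line) for 8 nephron, metabolic and clock genes in vehicle, Dps at 4 h and Dps at 24 h. Aqp2 is higher at 24 h than in both other groups, Casr, Cpt1a, Irs2 and Arntl are lower than in both, and Cry1 at 24 h lies near its 4 h level.

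Genes of protein synthesis and respiration rose in large numbers, and most of these calls were lost with the length and GC offset. Of 42 cytosolic ribosomal protein genes 40 were called higher and none lower (median 0.46), and 16 with the offset, where the median was 0.18. Rps19, a subunit of the small ribosomal particle, read 158, 215 and 164 CPM in vehicle and 309, 311 and 284 CPM after Dps (0.75 ± 0.11, adjusted p = 0.00134), and 0.72 with the offset. Of 37 respiratory chain genes 23 were called higher (median 0.32), and 5 with the offset (median 0.06). Mitochondrial ribosome genes passed in 20 of 31 cases and in 6 with the offset, and proteasome genes in 14 of 31 and 4. In the opposite direction, 12 of 21 chromatin and other long nuclear regulators were called lower, and 1, the acetyltransferase Crebbp (−0.82 ± 0.16), with the offset (−0.52). Without vehicle replicate 3 the counts of these 5 lists were 20, 4, 4, 4 and 2, and without Dps replicate 2 they were 22, 7, 5, 5 and 5. Without Dps replicate 1 the last 4 counts were 8, 7, 5 and 4, and without vehicle replicate 1 the middle 3 were 11, 8 and 7.

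Of 24 tested genes of the unfolded protein and integrated stress responses 6 were called higher and 2 lower, 5 and 1 with the offset, and the median was 0.15 (0.08 with the offset). A total of 14 lay above 0 and 10 below, and the number higher was 3 without vehicle replicate 1 or 3. Ddit3, the stress factor CHOP, read 10.1, 13.7 and 11.8 CPM in vehicle and 21, 25.8 and 24.5 CPM after Dps, a 2-fold rise (adjusted p = 0.00666). Sdf2l1, a chaperone partner, rose by 0.98 ± 0.20 (0.65 with the offset) and Calr, the calcium-binding chaperone calreticulin, by 0.42 ± 0.09. The replication licensing genes Mcm3 and Mcm5 rose by 0.90 ± 0.17 and 0.89 ± 0.15. The 32 tested cell cycle genes gave 4 calls higher and 2 lower in all, beside background shares of 9.64% and 10.4% of all genes. With the offset 2 were higher and 2 lower, and the number higher was 2 without Dps replicate 1 or 2 or vehicle replicate 3.

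Genes of metal handling showed few calls. Of 18 tested iron and heme genes 1 was called higher and 2 lower, beside background shares of 9.64% and 10.4% of all genes. With the offset 1 was higher and none lower, and without 1 library the number lower ran from 0 to 3. Ferritin heavy chain, Fth1, read 4628, 5172 and 4567 CPM in vehicle and 5581, 5621 and 5130 CPM after Dps (0.18 ± 0.10, adjusted p = 0.186), and light chain, Ftl1, changed by 0.27 ± 0.09 (adjusted p = 0.0519). Blvrb, a biliverdin and flavin reductase, rose by 0.64 ± 0.11 (adjusted p = 0.00303), and by 0.38 with the offset. The oxygenase Hmox1 read 26.6, 57.2 and 45.2 CPM in vehicle and 27.2, 43.1 and 46.3 CPM after Dps (adjusted p = 0.703). None of 14 zinc and manganese genes was called, 2 were called higher with the offset, and Mt1, a metallothionein, gave 0.27 ± 0.25 (adjusted p = 0.486).

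The 24 h state differed widely from the 4 h state of the same agent. In a direct test between the Dps groups 6626 genes were called (44.6%), 3270 higher at 24 h (22%) and 3356 lower (22.6%). With the length and GC offset 5383 were called. Of 42 cytosolic ribosomal protein genes 41 were called higher than at 4 h (median 0.71). Of 21 chromatin and other long nuclear regulators 19 were called lower (median −0.46). These calls, the late counts below and all comparisons of single genes with 4 h come from the fit without the offset. The part of transcript length in them was not tested. Late genes were counted where vehicle or the 24 h group averaged at least 1 CPM. Of these, 1163 were called higher at 24 h than in both vehicle and 4 h libraries. A further 1231 were called lower than in both, and the 24 h libraries enter both comparisons. Among such late rises, Ptgis, prostacyclin synthase, read 3.95, 2.98 and 3.98 CPM in vehicle, 2.2, 2.9 and 1.79 CPM at 4 h and 9.07, 9.7 and 11.5 CPM at 24 h (1.46 ± 0.26 against vehicle, adjusted p = 0.00316). Higd1b rose from at most 0.688 CPM in vehicle to at least 1.17 CPM (1.46 ± 0.34). The glucocorticoid-induced gene Tsc22d3 read 90.4, 56 and 78 CPM in vehicle, 63.3, 48.1 and 54.9 CPM at 4 h and 133, 209 and 227 CPM at 24 h (1.34 ± 0.31, adjusted p = 0.0148), a call lost without Dps replicate 2 or vehicle replicate 3.

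A direct test between MnDps and Dps at 24 h called 121 genes (0.815%), 22 higher after MnDps (0.148%) and 99 lower (0.666%), with 2 MnDps libraries. This count depended on the fit: it was 727 in the fit of the compared groups alone, 566 with DESeq2, 716 with limma voom and between 5 and 45 when 1 library was left out. Lgals3bp was higher after MnDps, at 263 and 232 CPM (0.58 ± 0.12, adjusted p = 0.0368). For Irf7, at 241 and 203 CPM after MnDps, the difference was 0.74 ± 0.23 and did not pass the test (adjusted p = 0.15), and for Ifi27 it was 0.11 ± 0.12 (adjusted p = 0.689).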

How the data were processed

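Whole-kidney RNA of 14 libraries was sequenced, and the authors deposited 1 table of raw counts per gene symbol. Reads were aligned with STAR to mm10 and counted with featureCounts, per the submitters' processing notes; for versions, strand setting and multi-mapping reads, the entry is: not given in the sources used here. All 14 libraries in 5 groups were fitted together with edgeR 4.0.16 (R 4.3.3) by its quasi-likelihood test, with TMM scaling, robust dispersion, a filter on low counts by group and 9 residual degrees of freedom. P-values were adjusted by the Benjamini-Hochberg method over the 14854 tested genes in each of 3 comparisons (Dps 24 h against vehicle, Dps 4 h and MnDps 24 h), and calls were made at 0.05. Standard errors were derived from the F statistics (|log2 fold change| over the root of F). The offset fit removed each library's smooth trend (splines of 5 degrees of freedom) on transcript length and GC content. Both were taken from the longest GENCODE transcript of each gene. Alternatives were size factors by median of ratios, no filter, at least 1 CPM in 3 libraries, only the compared groups, a minimum change of 1.5-fold, DESeq2 1.42.0, limma 3.58.1 voom with library weights, and leaving out each library. The biological coefficient of variation, which leaves out counting error, was 10.7% as a common value over all tested genes. The fit was tested on simulated counts with known changes, which carried no trend on transcript length and so cannot speak to that trend.

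Genes named are the 15 largest rises and falls with at least 1 CPM and no overlap between groups, the 10 largest differences in CPM and the 10 largest late changes in each direction, up to 4 called members per list and direction, and 12 fixed genes; others, such as C4b and Ddx58, were named after their values were seen. Members and lists were chosen with earlier results of these data known. Replicate numbers follow accession order. Some genes are not reported here.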

Additional observations from a re-analysis of the deposited data

Results flagged for a closer look

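A direct test between time points and one between agents gave differences between groups. Between Dps at 24 h and Dps at 4 h 6626 genes differed, or 5383 with the length and GC offset. Between MnDps and Dps at 24 h 121 genes differed, and edgeR's quasi-likelihood test was used for both.

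Of the genes named for the comparison with vehicle, 5 differed between MnDps and Dps at 24 h. Lgals3bp was higher after MnDps by 0.58 on the log2 scale (263 and 232 CPM, adjusted p = 0.0368), Cubn by 0.41 (567 and 553 CPM, adjusted p = 0.0491) and the clock repressor Cry2 by 0.37 (40.9 and 43 CPM, adjusted p = 0.0407). Ddit4, a stress-induced inhibitor of mTOR, had a difference of −0.90 (28.4 and 15.5 CPM, adjusted p = 0.0469), and Hspe1, a mitochondrial chaperonin, one of −0.56 (138 and 129 CPM, adjusted p = 0.0301). The MnDps group holds 2 libraries.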

How the results depend on the processing

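Of 235 named genes called against vehicle, 229 kept direction and call with DESeq2, 227 with limma voom, 234 with median-of-ratios size factors, 213 without the filter and 214 of 231 in the fit of the compared groups. With the length and GC offset 146 kept both, 83 lost the call and 6 turned: Abcg2 to 0.00, Cubn to 0.12, Eci1 to −0.04, Folr1 to −0.09, Lrp2 to 0.05 and Neat1 to 0.02. That fit called 1457 genes (752 higher, 705 lower). A minimum change of 1.5-fold left 8 against vehicle (6 higher, 2 lower), 744 against Dps at 4 h and 2 between MnDps and Dps, and 6 of the named genes. Leaving out 1 library gave 843 to 3529 called genes against vehicle (398 to 1602 higher, 445 to 1927 lower) and 5 to 45 between MnDps and Dps, where the fit of the compared groups called 727, DESeq2 566 and limma voom 716; the cause was not tested. The named genes that lost their call without 1 library numbered 24 to 112. The other counts over all tested genes stayed within 1.5 times of those reported; counts within gene lists often moved more and stand beside the lists. Genes near 0 CPM in vehicle, such as Saa3, rest on few counts. No paired analysis was possible because the labels give no replicate numbers.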

Other observations

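Of 18 antioxidant enzymes 6 were called higher and 1, catalase (Cat), lower, and with the offset the numbers were 2 and 1. The number higher was 3 without Dps replicate 1, 1 without Dps replicate 2, 2 without vehicle replicate 1 and 0 without vehicle replicate 3, and the call of Cat was lost in each fit without 1 library other than vehicle replicate 2. Sod1, which removes superoxide, read 657, 725 and 616 CPM in vehicle and 867, 858 and 780 CPM after Dps (0.33 ± 0.10, adjusted p = 0.0313), a call lost in 4 of the 6 fits without 1 library. Of 29 lysosomal genes 4 were called higher and none lower, beside background shares of 9.64% and 10.4% of all genes. With the offset 4 were higher as well, and 2 genes were called in both fits. The number higher was 2 without Dps replicate 1 or vehicle replicate 1, and 1 without Dps replicate 2 or vehicle replicate 3. Laptm5, a lysosomal membrane protein of blood cells, rose by 0.76 ± 0.14, from 17.3, 12.7 and 11.4 CPM to 22, 23 and 24.8 CPM, and had stood at 8.07, 9.69 and 7.38 CPM at 4 h. Of 26 genes of the NF-kB pathway 1 was called higher and 1 lower, while 22 were called lower than at 4 h. Tnfaip2, a target of tumour necrosis factor, fell below vehicle, from 45.5, 56 and 49.9 CPM to 35.6, 37.9 and 36.9 CPM (−0.45 ± 0.09, adjusted p = 0.00479). Amt, an enzyme of glycine cleavage, fell from 70.7, 72.5 and 67.9 CPM to 43.9, 42.9 and 47.4 CPM (−0.65 ± 0.09, adjusted p = 0.00129), and its partner Gldc was lower by 0.75 ± 0.23 (adjusted p = 0.0381), a call lost in each fit without 1 library.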
